A study of Mus musculus with 8 samples.

Results

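The genes described here are 9 genes of growth arrest and the p53 pathway, *Cdkn1a*, *Cdkn1b*, *Gadd45b*, *Gadd45g*, *Trp53inp1*, *Trp53inp2*, *Ccng1*, *Mdm2* and *Trp53*, taken by symbol from the 12551 genes of the count table, where all 9 were present. They were measured by RNA sequencing of whole tibialis anterior (TA) muscle, a fast-twitch hindlimb muscle, from male mice 7 weeks old. The groups were 4 wild-type (WT) mice and 4 mice homozygous for a null allele of Klotho (KL-/-), bred as littermates from heterozygous parents on a mixed background. Klotho is a hormone and FGF23 co-receptor made mainly in kidney, and the allele is lost in the whole body, so a change in muscle can follow from loss of Klotho there or elsewhere. The comparison asks how these genes' mRNA differed between the genotypes in the TA.

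p53 is a transcription factor that is held low by the ubiquitin ligase Mdm2 and accumulates after DNA damage or other stress. It then raises the transcription of arrest genes, of which *Cdkn1a*, encoding the cyclin-dependent kinase (CDK) inhibitor p21, is the best known, and also of *Mdm2* itself, which closes a feedback loop. In skeletal muscle most nuclei sit in post-mitotic fibers, where p21 and the GADD45 proteins are also known from denervation, disuse and other forms of atrophy.

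Library totals were 20860262 to 26501093 counts in WT and 22061526 to 29273758 counts in KL-/-. *Kl* is not among the rows of the table, so the genotypes rest on the labels. The KL-/- library of replicate 2 stood apart from its group, with a chi-square per gene of 60.3 to 84.4 against the other KL-/- libraries, which differed from each other by 17.8 to 27.8. By its label, the KL-/- library of replicate 3 belongs to a different batch from the remaining 7. Where a call was lost without 1 library, the libraries concerned are named beside it. Levels are CPM, library-size-scaled counts after TMM normalization, and fold changes are log2 values of KL-/- over WT from the edgeR quasi-likelihood test with its standard error (SE), called at a Benjamini-Hochberg adjusted p (FDR) under 0.05 over all genes.

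Among the 9 genes, *Cdkn1a* and *Gadd45g* rose in KL-/- muscle, and both calls were close to the threshold. No gene of the set fell at that threshold by edgeR's quasi-likelihood test, although *Gadd45b* and *Trp53inp2* were lower at an unadjusted p under 0.05. The edgeR likelihood ratio test, DESeq2 and limma-voom each called 0 of the 9 lower. Over all genes tested, 7.35% were called higher and 6.67% lower. The median log2 fold change was 0.03 over the 9 genes and -0.02 over all genes, with 5 of the 9 above 0, 4 below 0 and 7 within 0.5 of 0 in either direction. Under scaling by library totals the median of all genes moved to -0.13.

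**Figure D1:**
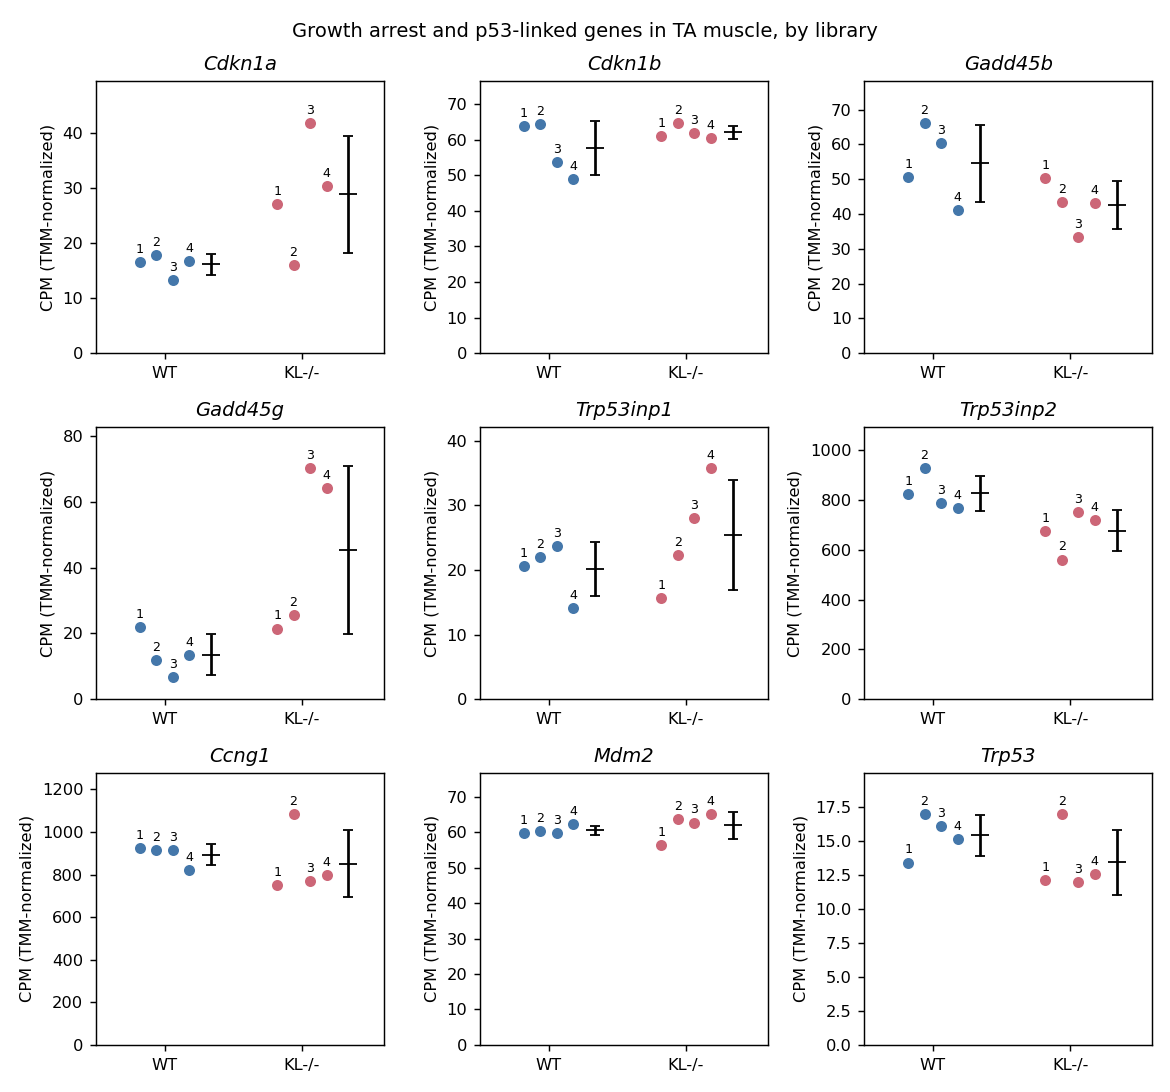
CPM of each of the 9 genes (vertical axes, from 0) in the 4 WT (blue) and 4 KL-/- (red) libraries, numbered by replicate, with the mean and SD as a bar and whiskers to the right. *Cdkn1a*, *Gadd45g* and *Mdm2*, the last not called, each had 3 KL-/- libraries above the highest WT library. *Trp53inp2* was the 1 gene with no overlap between genotypes.

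*Cdkn1a* (chr17:29090986-29100722, plus strand, mm10) encodes p21, which binds cyclin-CDK complexes and PCNA and stops the cell cycle. Its level was 16.6, 17.9, 13.3 and 16.8 CPM in the WT libraries of replicates 1 to 4. In KL-/- it was 27.1, 16.1, 41.9 and 30.4 CPM. The KL-/- library of replicate 2 lay within the WT range while the other 3 lay above it, so the groups overlapped, and the highest KL-/- library held 2.61 times the level of the lowest. The mean rose from 16.1 ± 1.96 to 28.9 ± 10.7 CPM (SD, n = 4 each). The log2 fold change was 0.84 (SE 0.24, 95% interval 0.30 to 1.38, edgeR FDR 0.0457). This call passed in 1 of 8 fits that each left out 1 library, the one without KL-/- replicate 2 (log2 fold change 1.05, edgeR FDR 0.00413), and did not pass without KL-/- replicate 3 (0.61, edgeR FDR 0.103). It was also lost with robust edgeR dispersions (FDR 0.0650), with limma-voom (0.78, FDR 0.0673) and with scaling by library totals (0.72, edgeR FDR 0.0582). A gene of uncertain status lies on the opposite strand over 1046 bases of *Cdkn1a*, and whether reads were counted by strand is not given in the sources used here.

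The sequence before the upstream *Cdkn1a* start of RefSeq (GRCm38.p6, the mm10 build) is shown because it holds stretches of the p53 half-site consensus, the unit that a pair of p53 subunits recognizes. Capitals mark the matches, GGACTAGCTT beginning 73 bases and GAACATGTCT beginning 51 bases before the start at position 29090979. The matches lie 2863 and 2841 bases upstream of the downstream start at position 29093769. The 250 bases span chr17:29090729-29090978 on the plus strand.
Cdkn1a upstream: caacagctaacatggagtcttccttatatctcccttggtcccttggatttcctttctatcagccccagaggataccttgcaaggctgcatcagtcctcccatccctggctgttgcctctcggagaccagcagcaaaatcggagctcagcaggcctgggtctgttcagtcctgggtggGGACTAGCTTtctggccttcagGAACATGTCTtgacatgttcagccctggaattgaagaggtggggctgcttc

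The consensus was searched on both strands of RefSeq windows from 250 bases before to 50 bases after each start. It occurred in windows of 4 of the 8 genes with a window, *Cdkn1a*, *Ccng1*, *Mdm2* and *Trp53*, and in 2742 of all 32817 windows (8.36%). The stretches of the other 3 genes are shown for comparison, since their mRNA did not pass the test, with 20 bases on either side of the match in capitals.
Ccng1, 185 bases before the start: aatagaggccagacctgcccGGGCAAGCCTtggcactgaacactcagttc
Mdm2, 186 bases before the start: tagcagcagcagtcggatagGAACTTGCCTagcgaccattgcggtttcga
Trp53, 75 bases before the start: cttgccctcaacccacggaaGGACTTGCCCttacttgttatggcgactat
The matches are at chr11:40755462-40755471 (minus strand), chr10:117710935-117710944 (minus strand) and chr11:69580284-69580293 (plus strand). Of the 4 genes that hold the consensus, *Cdkn1a* was called and *Ccng1*, *Mdm2* and *Trp53* were not. *Gadd45g*, also called, had 0 matches, as had *Cdkn1b*, *Gadd45b* and *Trp53inp2*, which were not called. Sequence outside these windows was not searched, and binding of p53 was not tested.

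*Cdkn1b* (chr6:134920401-134925525, plus strand) encodes p27, a related CDK inhibitor whose amount is set largely by protein turnover. Its level was 63.7, 64.4, 53.8 and 48.8 CPM in WT and 60.9, 64.8, 61.9 and 60.5 CPM in KL-/- (replicates 1 to 4). The KL-/- libraries lay close together, within the spread of WT but for replicate 2 just above it, and the groups overlapped. The mean was 57.7 ± 7.64 CPM in WT and 62.0 ± 1.94 CPM in KL-/- (SD, n = 4). The log2 fold change of 0.11 (SE 0.09, 95% interval -0.10 to 0.31, edgeR FDR 0.451) did not pass the test and was -0.01 under library totals. Per kb of gene length, p27 mRNA was the more abundant inhibitor in both genotypes, at 24.0 against 7.97 CPM per kb for p21 in WT and 25.8 against 14.3 in KL-/-.

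The ratio of *Cdkn1a* to *Cdkn1b* counts within a library, which no scaling factor can change, was -1.84 ± 0.21 in WT and -1.18 ± 0.61 in KL-/- on the log2 scale (SD, n = 4). The difference of 0.65 did not pass the two-sided exact permutation test (p = 0.143), whose smallest possible value with 4 against 4 is 0.0286. The KL-/- library of replicate 2, at -2.01, lay at the lowest WT library, also -2.01, and the other 3 lay above all WT libraries.

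*Gadd45g* (chr13:51846675-51848474, plus strand) and *Gadd45b* (chr10:80930091-80932204, plus strand) encode small stress proteins that bind p21, PCNA and the kinase MEKK4. *Gadd45g* stood at 21.8, 11.98, 6.63 and 13.6 CPM in WT and at 21.5, 25.5, 70.2 and 64.3 CPM in KL-/- (replicates 1 to 4). The KL-/- libraries of replicates 3 and 4 were far above all others, while that of replicate 1 lay just under the highest WT library. The mean rose from 13.5 ± 6.30 to 45.4 ± 25.4 CPM (SD, n = 4), the widest relative spread among KL-/- libraries of any of the 9 genes. The log2 fold change was 1.75 (SE 0.45, 95% interval 0.74 to 2.76, edgeR FDR 0.0329). The call passed in 3 of 8 fits that left out 1 library, with log2 fold changes of 1.46 to 2.08 and edgeR FDR of 0.0180 to 0.0903. It was lost without WT replicates 2, 3 or 4 or KL-/- replicate 4, without KL-/- replicate 3 (1.46, edgeR FDR 0.0858) and with robust dispersions (edgeR FDR 0.0675).

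*Gadd45b* was not called. Its level was 50.5, 66.3, 60.5 and 41.2 CPM in WT and 50.3, 43.6, 33.4 and 43.2 CPM in KL-/- (replicates 1 to 4). The groups overlapped, with the WT library of replicate 4 below 3 of the KL-/- libraries. The mean was 54.6 ± 11.1 CPM in WT and 42.6 ± 6.95 CPM in KL-/- (SD, n = 4), with a log2 fold change of -0.36 (SE 0.16, 95% interval -0.71 to -0.0011, edgeR FDR 0.155) that did not pass. Per kb, by the geometric mean over libraries, *Gadd45g* stood at 0.27 of *Gadd45b* in WT and at 1.10 of it in KL-/-. In KL-/- the log2 ratio of their counts was -1.23, -0.77, 1.07 and 0.57 (replicates 1 to 4). The mean log2 ratio was -2.12 ± 0.89 in WT and -0.09 ± 1.09 in KL-/- (SD, n = 4). This difference of 2.03 was the largest of the 4 ratios tested, and it did not pass (exact permutation p = 0.0571, adjusted over the 4 ratios 0.143).

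The windows before both GADD45 starts hold a TATAAA stretch, the core of a TATA box, and are shown because the genes share it although 1 was called and the other was not. Capitals mark the stretch, 46 bases before the *Gadd45b* start at chr10:80930045-80930050 and 27 bases before the *Gadd45g* start at chr13:51846648-51846653.
Gadd45b: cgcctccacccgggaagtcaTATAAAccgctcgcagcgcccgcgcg
Gadd45g: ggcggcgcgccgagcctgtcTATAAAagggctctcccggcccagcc
Searched on both strands, TATAAA occurred in windows of 3 of the 8 genes and in 13.6% of all windows, the other gene being *Trp53*. Of the other motifs among the 6 searched, GGGCGG occurred in windows of 5 of the 8 genes (35.6% of all windows), CACGTG in 3 (7.15%), GTAAACA in 1 (3.65%) and TGACGTCA in 1 (1.79%).

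**Figure D2:**
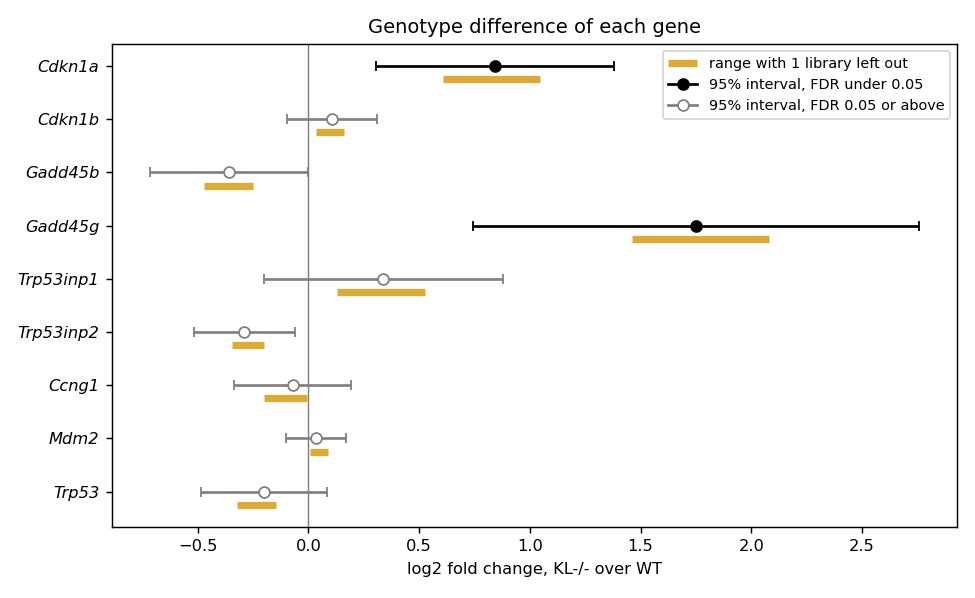
Log2 fold change of KL-/- over WT for each of the 9 genes (points) with its 95% interval (lines), filled where the edgeR FDR was under 0.05, and the range over 8 fits that each left out 1 library (orange bars). The intervals of *Cdkn1a* (0.30 to 1.38) and *Gadd45g* (0.74 to 2.76) lie above 0, and those of *Trp53inp2* (-0.52 to -0.06) and *Gadd45b* lie below it.

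*Trp53inp1* (chr4:11156441-11174377, plus strand) and *Trp53inp2* (chr2:155381856-155389847, plus strand) encode nuclear proteins that shuttle to the cytoplasm and take part in autophagy. The first is a p53 target that also assists p53, and the second is abundant in muscle. *Trp53inp2* stood at 824, 927, 788 and 769 CPM in WT and at 676, 561, 752 and 718 CPM in KL-/- (replicates 1 to 4). All 4 KL-/- libraries lay below all 4 WT libraries, a separation that 9.47% of all genes showed in this direction. In the other direction, all KL-/- above all WT, 0 of the 9 genes separated, against 10.2% of all genes. The mean of *Trp53inp2* was 827 ± 70.5 CPM in WT and 677 ± 83.4 CPM in KL-/- (SD, n = 4). The log2 fold change of -0.29 (SE 0.10, 95% interval -0.52 to -0.06, edgeR FDR 0.0848) did not pass over all genes. It passed under library totals (-0.41, edgeR FDR 0.0241) and in 0 of the 8 fits that left out 1 library, where edgeR's FDR was 0.0890 to 0.205.

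*Trp53inp1* ranged more widely in KL-/- than in WT. Its level was 20.6, 22.1, 23.6 and 14.1 CPM in WT and 15.6, 22.3, 28.1 and 35.7 CPM in KL-/- (replicates 1 to 4). The groups overlapped in both directions. The mean was 20.1 ± 4.18 CPM in WT and 25.4 ± 8.57 CPM in KL-/- (SD, n = 4), and the log2 fold change was 0.34 (SE 0.24, 95% interval -0.20 to 0.88, edgeR FDR 0.356). Per kb, *Trp53inp2* mRNA exceeded *Trp53inp1* mRNA in both genotypes, at 210 against 3.70 CPM per kb in WT and 172 against 4.68 in KL-/-. The log2 ratio of *Trp53inp1* to *Trp53inp2* counts was -5.38 ± 0.29 in WT and -4.79 ± 0.47 in KL-/- (SD, n = 4), a difference of 0.59 that did not pass (exact permutation p = 0.114).

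*Trp53* (chr11:69580359-69591873, plus strand) encodes p53 itself, whose activity is set mainly at the protein level. Its mRNA stood at 13.4, 16.9, 16.1 and 15.1 CPM in WT and at 12.1, 16.9, 11.98 and 12.6 CPM in KL-/- (replicates 1 to 4). The KL-/- libraries of replicates 1, 3 and 4 were below every WT library and that of replicate 2 was level with the highest WT library. The mean was 15.4 ± 1.51 CPM in WT and 13.4 ± 2.37 CPM in KL-/- (SD, n = 4). The log2 fold change of -0.20 (SE 0.13, 95% interval -0.49 to 0.08, edgeR FDR 0.301) did not pass, and without KL-/- replicate 2 it was -0.32 with an edgeR FDR of 0.0461.

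*Mdm2* (chr10:117688875-117710758, minus strand), the ubiquitin ligase that p53 induces, had the narrowest spread of the set in WT. It stood at 59.6, 60.3, 59.7 and 62.3 CPM in WT and at 56.3, 63.7, 62.7 and 65.1 CPM in KL-/- (replicates 1 to 4). The groups overlapped, with 3 KL-/- libraries above the highest WT library and 1 below the lowest. The means were 60.5 ± 1.26 CPM in WT and 61.9 ± 3.88 CPM in KL-/- (SD, n = 4). The log2 fold change was 0.03 (SE 0.06, 95% interval -0.10 to 0.17, edgeR FDR 0.725), and -0.08 under library totals. The upper bound of that interval lies below the lower bound for *Cdkn1a* (0.30), whose call passed in 1 of 8 fits that left out 1 library. The difference between these genes was not tested.

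*Ccng1* (chr11:40748552-40755286, minus strand) encodes cyclin G1, a p53 target that recruits a phosphatase to Mdm2. It stood at 926, 916, 915 and 820 CPM in WT and at 752, 1084, 770 and 799 CPM in KL-/- (replicates 1 to 4). In KL-/-, replicate 2 exceeded every WT library and the other 3 were below every WT library. The mean was 894 ± 49.7 CPM in WT and 851 ± 156 CPM in KL-/- (SD, n = 4), with a log2 fold change of -0.07 (SE 0.12, 95% interval -0.33 to 0.19, edgeR FDR 0.710). Without KL-/- replicate 2 it was -0.20 (edgeR FDR 0.0578). The KL-/- library of replicate 2 was thus the lowest of its group for *Cdkn1a* and the highest for *Ccng1* and *Trp53*.

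*Mdm2* counts exceeded *Trp53* counts in every library, with a log2 ratio of 1.98 ± 0.15 in WT and 2.22 ± 0.22 in KL-/- (SD, n = 4). The difference of 0.24 did not pass (exact permutation p = 0.114). Adjusted over the 4 ratios, each exact p was 0.143, and in each ratio the groups overlapped. A single ratio at the smallest possible exact p would not have passed after this adjustment.

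**Figure D3:**
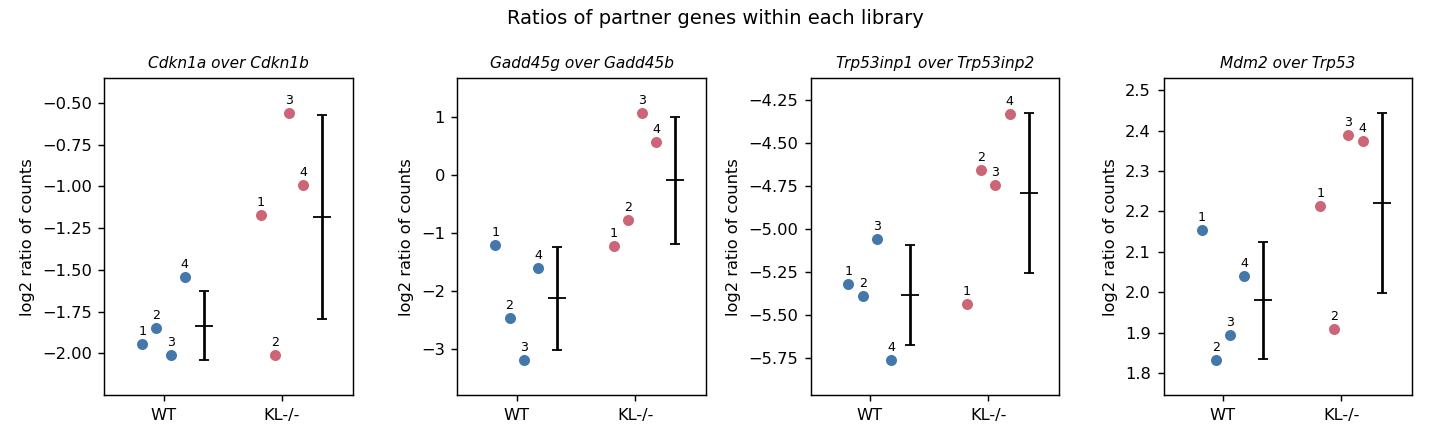
Log2 ratio of the counts of related genes within each library (vertical axes, not starting at 0) for the 4 WT (blue) and 4 KL-/- (red) libraries, numbered by replicate, with mean and SD. The KL-/- mean was higher in all 4 panels, by 0.24 to 2.03, and the groups overlapped in each. In each ratio the gene with the higher log2 fold change is on top, so the shared direction follows from that choice.

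Other targets of p53 were read from a list of 36 genes, of which 29 were in the table. Of these, 4 rose (13.8%, against 7.35% of all genes) and 2 fell (6.90%, against 6.67%), and their median log2 fold change was 0.09 against -0.02 over all genes. Under library totals 4 were higher and 4 lower, and the median was -0.03 against -0.13 over all genes. *Btg2*, an antiproliferative gene, rose from 17.0 ± 2.31 to 54.8 ± 28.0 CPM (SD, n = 4, log2 fold change 1.69, edgeR FDR 0.0125). *Sesn1*, a stress-induced inhibitor of mTORC1 signaling, rose from 24.7 ± 3.70 to 44.5 ± 9.84 CPM (0.85, edgeR FDR 0.0126). In both genes all KL-/- libraries lay above all WT libraries. *Polk*, a translesion DNA polymerase, fell from 12.6 ± 1.36 to 7.00 ± 1.19 CPM (-0.86, edgeR FDR 0.00618). *Zmat3*, an RNA-binding zinc finger gene, fell from 15.7 ± 2.701 to 9.86 ± 0.62 CPM (-0.67, edgeR FDR 0.0107). The remaining called targets, named after their values were seen, were *Ephx1* (0.48) and *Ei24* (0.32), both higher. All 6 of these calls also passed in each of the 8 fits that left out 1 library. *Bax* (0.05), *Bbc3* (-0.64) and *Fas* (0.61), examples of genes that act in cell death, did not pass, as the plot of p53 targets shows. *Bbc3* and *Fas* were at an unadjusted p under 0.05 by edgeR, in opposite directions. *Apaf1*, *Perp*, *Aen* and *Tnfrsf10b* did not pass either.

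**Figure D4:**
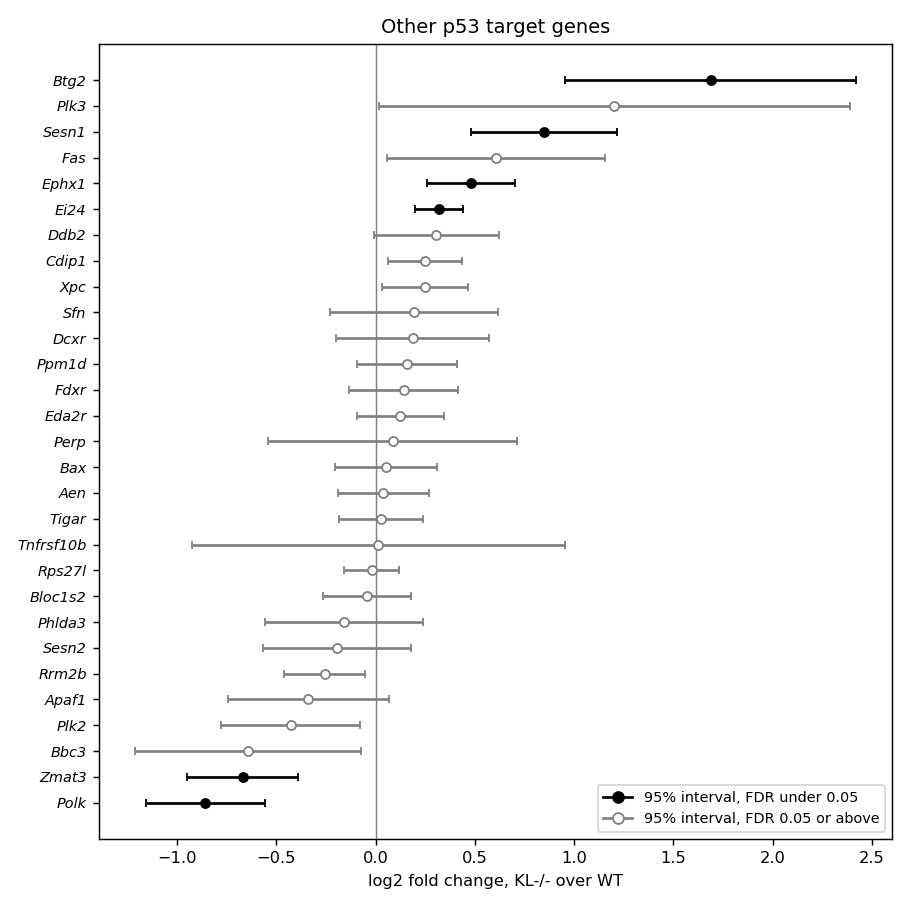
Log2 fold change of KL-/- over WT (points) with 95% interval (lines) for the 29 other p53 target genes in the table, filled where the edgeR FDR was under 0.05. The list spreads to both sides of 0, with 19 genes above and 10 below, from *Btg2* at 1.69 to *Polk* at -0.86. Under scaling by library totals, not drawn, 14 were above and 15 below.

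Genes that act on p53 were called in both directions. Of 26 listed, 23 were present, 3 rose and 3 fell, with a median log2 fold change of 0.01. *Mdm4*, the partner of Mdm2 that binds p53, rose from 48.3 ± 4.30 to 71.7 ± 8.52 CPM (SD, n = 4, log2 fold change 0.57, edgeR FDR 0.00750), whereas *Mdm2* did not pass. *Hipk2*, a kinase of p53, fell from 60.0 ± 7.67 to 39.8 ± 6.07 CPM (-0.60, edgeR FDR 0.0171). *Trp53bp1*, a damage-response adaptor, fell from 23.1 ± 1.02 to 16.4 ± 0.20 CPM (-0.49, edgeR FDR 0.00307). *Usp10*, a deubiquitinase of p53, had a log2 fold change of -0.31 (edgeR FDR 0.0137). The other called genes, named after their values were seen, were the ubiquitin ligase gene *Rfwd2* (0.27) and the deubiquitinase gene *Usp7* (0.23). *Mdm4*, *Trp53bp1* and *Usp10* passed in each of the 8 fits that left out 1 library. *Hipk2* passed in 6 of them, with an edgeR FDR of up to 0.0519 (lost without WT replicate 2 or KL-/- replicate 3). *Rfwd2* passed in 3 (edgeR FDR up to 0.0782, lost without WT replicates 2, 3 or 4 or KL-/- replicates 3 or 4) and *Usp7* in 2 (edgeR FDR up to 0.109, kept only without WT replicate 4 or KL-/- replicate 2). Under library totals this list had 1 gene higher and 6 lower.

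The remaining GADD45 family member on the lists, *Gadd45a*, rose with *Gadd45g*. Its level went from 23.8 ± 3.81 to 40.9 ± 9.47 CPM (SD, n = 4, log2 fold change 0.79, edgeR FDR 0.0237), with all KL-/- libraries above all WT libraries. It was not called without WT replicates 2 or 3 or KL-/- replicates 3 or 4, where the edgeR FDR reached 0.0679. Of the 10 genes of that list, all present, *Mapk14*, the p38 kinase downstream of MEKK4, was the 1 that fell (-0.38, edgeR FDR 0.0212), a call lost without WT replicate 2 or KL-/- replicates 1, 3 or 4 (edgeR FDR up to 0.0610). For the turnover of p27, 6 of 7 listed genes were present and 1 was called, *Cops5*, a subunit of the COP9 signalosome, which rose (0.30, edgeR FDR 0.0225). That call was lost under library totals and without WT replicates 2 or 3 or KL-/- replicates 3 or 4 (edgeR FDR up to 0.0658), and without KL-/- replicate 2, or by DESeq2, 3 genes of the list were higher.

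Among other CDK inhibitors and pocket proteins, 7 of 8 were present and 2 were called. *Rbl2*, a pocket protein of resting cells, rose (log2 fold change 0.49, edgeR FDR 0.0216), and its FDR reached 0.0606 by edgeR without WT replicate 2 or KL-/- replicate 3. *Cdkn2b*, encoding p15, fell from 1.67 ± 0.52 to 0.63 ± 0.03 CPM (SD, n = 4, -1.38, edgeR FDR 0.0133), and passed in each of the 8 fits that left out 1 library. Among cyclins, CDKs and E2F factors, 16 of 21 were present, *E2f3* fell (-0.30, edgeR FDR 0.0243) and 0 rose by edgeR's quasi-likelihood test. At an unadjusted p under 0.05 that list held 1 higher and 3 lower genes, and the likelihood ratio test, DESeq2 and limma-voom each called 0 higher and 2 lower. *E2f3* kept its call without KL-/- replicate 2 or 3 and lost it without any of the other 6 libraries (edgeR FDR up to 0.0703), and without KL-/- replicate 2 the list had 4 lower genes.

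Of 19 proliferation genes 11 were present, and *Rrm1*, a ribonucleotide reductase subunit, was called lower (-0.40, edgeR FDR 0.0445), with 0 called higher by edgeR's quasi-likelihood test, by the likelihood ratio test, by DESeq2 and by limma-voom and 0 higher at an unadjusted p under 0.05. *Rrm1* passed in 1 of 8 fits that left out 1 library, the one without KL-/- replicate 2, where 3 genes of the list were lower, and reached an edgeR FDR of 0.120 in the others. Of 12 senescence-associated genes 7 were present, and *Cdkn2a*, *Il6*, *Ccl2*, *Mmp3* and *Cxcl1* were not among the genes counted. *Cdkn2b* and *Hmgb1* (-0.31, edgeR FDR 0.0405), a chromatin protein, were lower and 0 were higher by edgeR's quasi-likelihood test, with 1 higher at an unadjusted p under 0.05, 1 by the likelihood ratio test, 1 by DESeq2 and 0 by limma-voom. *Hmgb1* passed in 2 of 8 fits that left out 1 library, those without WT replicate 4 or KL-/- replicate 3, with an edgeR FDR of up to 0.0992 in the others.

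Cell type markers moved between the genotypes beside these genes, and in whole muscle fewer cells of a type and less RNA per cell cannot be told apart. The 8 myofiber markers, all present, summed to 1.407e+05 to 1.597e+05 CPM in WT and 1.727e+05 to 2.209e+05 CPM in KL-/-. None of them passed edgeR's quasi-likelihood test, with 2 higher at an unadjusted p under 0.05. The likelihood ratio test called 3 higher, DESeq2 4 and limma-voom 3. With robust dispersions the quasi-likelihood test called 3 higher, in its edgeR 3 version 2, and without KL-/- replicate 2 it called 1. Satellite cell markers, from the cells of muscle that can divide, summed to 66.1 to 79.6 CPM in WT and 76.0 to 80.9 CPM in KL-/-, and 0 of 6 passed by any of these 4 tests or at an unadjusted p under 0.05. Schwann cell markers summed to 52.7 to 93.8 CPM in WT and 97.9 to 119 CPM in KL-/-, with 3 of 6 higher and 2 of 6 without KL-/- replicate 3 or 4.

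Of the other cell types, fibro-adipogenic progenitor markers summed to 732 to 2841 CPM in WT and 398 to 1269 CPM in KL-/-, with 2 of 6 called lower and 5 of 6 lower at an unadjusted p under 0.05. Without WT replicates 1, 2 or 3 or KL-/- replicates 3 or 4 edgeR called 0 of them. With all 8 libraries DESeq2 called 3 and the robust fit 1. Tendon markers summed to 181 to 225 CPM in WT and 55.3 to 142 CPM in KL-/-, with 2 of 5 called lower and 3 of 5 lower at an unadjusted p under 0.05. The count was 0 by edgeR without any 1 WT library, without KL-/- replicate 3 or with robust dispersions, 1 without KL-/- replicate 4, 4 without KL-/- replicate 2, and 3 by the likelihood ratio test, DESeq2 and limma-voom. Endothelial markers summed to 379 to 598 and 339 to 385 CPM, with 1 of 6 called lower (2 by DESeq2). Macrophage markers summed to 39.6 to 92.6 and 29.7 to 58.4 CPM, with 1 of 8 called lower and 5 of 8 lower at an unadjusted p under 0.05. DESeq2 called 5 of them lower and the likelihood ratio test 2. Leaving out 1 library gave 0 (without WT replicates 1, 2 or 3 or KL-/- replicates 3 or 4) to 2 (without KL-/- replicate 1) by edgeR. Smooth muscle and pericyte markers summed to 302 to 451 and 325 to 416 CPM, with 1 of 5 called higher, a call that held without KL-/- replicate 2 and was lost without each of the other 7 libraries. For adipocytes 2 of 4 markers were present, at 1.02 to 5.74 and 1.16 to 20.9 CPM, and for red blood cells 1 of 5 was present, at 3.35 to 9.58 and 3.07 to 9.16 CPM. The part of these differences in the values of *Cdkn1a*, *Gadd45g* and the other genes was not tested.

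The profile of *Cdkn1a* over the 8 libraries was compared with those of 11044 genes by the root mean square distance of log2 CPM after centering each gene on its own mean. The nearest were *Pm20d2* at 0.17, *Jade2* at 0.19, *Snhg8* at 0.19, *Ybx3* at 0.20 and *Cirbp* at 0.20, against a spread of 0.53 of *Cdkn1a* about its own mean. Each of them shared the low KL-/- library of replicate 2, and none of the other 8 genes of the set was among them. The genes nearest to *Trp53inp2*, whose own spread was 0.20, were *Plxnb3* at 0.06, *Cacna1a* at 0.08, *Fam98c* at 0.08, *Hspb2* at 0.08 and *Timmdc1* at 0.08. These likenesses are a description over the same 8 libraries, whose differences in depth and genotype are common to all genes.

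**Figure D5:**
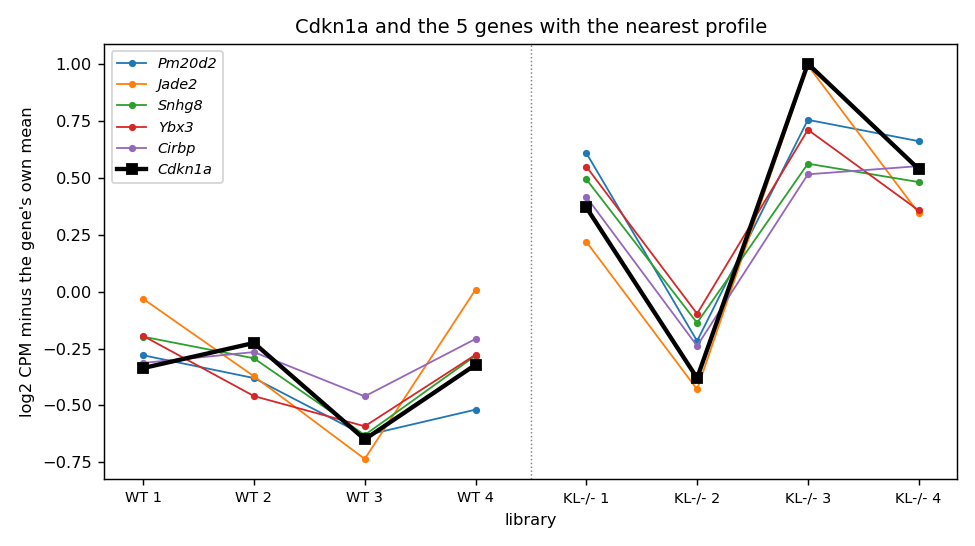
Log2 CPM of *Cdkn1a* (black squares) and of its 5 nearest genes (colored points) in the 8 libraries, each minus the gene's own mean, with lines joining the libraries of 1 genotype only to guide the eye. In KL-/- all 6 genes were lowest in replicate 2, where *Cdkn1a* stood at 16.1 CPM.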

How the data were processed

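RNA from 8 whole TA muscles was sequenced. Per the labels and the study's methods, the authors checked reads with FastQC, aligned them to mm10 with STAR and deposited unnormalized gene counts from featureCounts. The strand setting and annotation of the counting are not given in the sources used here. From these counts, TMM factors (0.950 to 1.05) and CPM were computed, and genotypes were compared with edgeR 4.0.16 (R 4.3.3) by its quasi-likelihood test over all 12551 genes, which all passed filterByExpr.

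The quasi-likelihood method of edgeR 4 was adopted, to match an earlier analysis of these data, after values from the installed default, the edgeR 3 method, had been seen. The default gave the same calls for the 9 genes (*Cdkn1a* FDR 0.0463, *Gadd45g* FDR 0.0331) and 1715 called genes against 1759. Robust fits and a common dispersion were also tried at that point, and the robust fit with the edgeR 4 method, which lost both calls, is given beside the results. Alternatives included DESeq2 1.42.0, limma-voom (limma 3.58.1), other scalings and filters, a replicate block and leaving out each library.

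The 9 genes and all gene lists were chosen with earlier results of these data known. All 9 genes were named. From each pathway list, up to 4 called genes with the largest change were named. Ratios were compared by two-sided exact permutation over 70 relabelings. Profiles were compared among genes averaging at least 1 log2 CPM. The p-values weigh a genotype difference against the spread among these 8 samples within their genotypes. Code was tested on simulated counts. A count of 3, the floor used for 0, equals 0.103 to 0.144 CPM and covers counting error only. The 95% intervals of fold changes come from the quasi-likelihood fit and include the spread between mice.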

Additional observations from a re-analysis of the deposited data

Results flagged for a closer look

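Of 26 groups of 4 libraries tested for a library far from the rest of its group, 3 had one, where chance gives about 1 in 20. *Ccng1* had its lowest WT library at 820 CPM (replicate 4) and its highest KL-/- library at 1084 CPM (replicate 2), with gaps to the nearest other library of 0.897 and 0.859 of the group's range. *Trp53* had its highest KL-/- library at 16.9 CPM, again replicate 2, with a gap of 0.884 of the range. In the KL-/- group the same library was thus the high one for both genes, and it was the highest or lowest of its group in 5 of the 9 genes, as were replicates 1 and 3.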

How the results depend on the processing

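Over 18 alternatives to each of the 9 log2 fold changes, 140 of the values kept direction and side of the threshold, 18 lost a call, 2 gained one and 2 changed sign. All lost calls were of *Cdkn1a* and *Gadd45g*, the only genes with a call to lose. *Cdkn1a* passed in 1 of 8 fits without 1 library and 6 of 10 others, and *Gadd45g* in 3 of 8 and 8 of 10. The run without a filter repeated the main fit, since every gene had passed the filter. The sign changes were *Cdkn1b* (-0.0114) and *Mdm2* (-0.0848) under library totals, where 492 genes were higher and 2127 lower (18.8% of calls higher, against 52.4%). The 9 genes then gave 1 higher and 1 lower, limma-voom gave 1 higher, and robust dispersions gave 0 higher by edgeR (2 at an unadjusted p under 0.05). With 1 library left out, 404 to 1521 genes were higher and 343 to 1234 lower, and 0 to 2 of the 9 were higher and 0 to 1 lower. Deviations of same-numbered libraries had correlations of -0.15, 0.18, -0.37 and 0.02. Such values, 1 per pair, cannot settle whether the numbers pair the libraries, and the main fit did not pair them. A replicate block gave 348 genes higher and 323 lower, with 0 of the 9 higher by edgeR (2 at an unadjusted p under 0.05), *Cdkn1a* at 0.78 (FDR 0.112) and *Gadd45g* at 1.67 (FDR 0.0992). Blocked signs of the ratios cannot reach a p under 0.125. Each ratio kept its direction and missed the threshold in each alternative run. With 1 library left out, too few relabelings remain for an exact p under 0.05, so those misses were fixed in advance. DESeq2 called 2456 genes and the edgeR likelihood ratio test 2124. The cause of these changes was not tested, and a fit without a library has fewer samples. The lowest count of any of the 9 genes in a library was 174, against a floor of 3, and the part of depth in the lost calls was not tested.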
